A study of Mus musculus with 3 samples.

Results

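Immunoglobulin genes were followed through 3 total RNA libraries of peripheral blood monocytes, isolated from C57BL/6J mice that were adult and 5 to 6 weeks old. A gene was taken when at least 1 of its transcripts is annotated with an immunoglobulin biotype (or its symbol is Ighm or Ighd) and its expected counts, summed over the 3 libraries, reached 10. Of 432 annotated immunoglobulin genes among 55536 genes in the table, 150 met the rule: 7 heavy constant, 73 heavy V, 1 kappa constant, 63 kappa V, 3 lambda constant and 3 lambda V genes. The members were thus chosen by their summed expected counts, and their levels are a description that carries no test.

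The libraries were made from 100 ng of RNA depleted of ribosomal RNA and are numbered as the submitters number their biological replicates. All 3 belong to 1 group with no treatment and no second cell type. The labels give them a single donor record and do not say how many animals were bled, so the spread between libraries may be partly technical. Monocyte markers such as Lyz2 and Csf1r were present in each library, and all 9 of the marker list had counts in all 3.

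An antibody has a pair of identical heavy chains and a pair of identical light chains, the latter of kappa or lambda type. In developing B cells a V segment is joined by DNA recombination to a J segment (in the heavy chain with a D segment between them), and the joined exon is spliced to a constant region gene. Ighm and Ighd serve naive B cells, which carry IgM and IgD as part of the receptor in their membrane. Class switching replaces them by Ighg, Ighe or Igha genes, and plasma cells secrete the product. Monocytes are known for binding antibody through Fc receptors, not for making it.

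The end of the heavy chain message decides between a receptor and a soluble antibody. The last coding bases of both forms of Ighm and Igha are shown because the forms part there. The results on form rest on levels of whole transcripts, of which the other bases are not shown. For Igha these are 1100 (secreted) and 2540 bases (membrane) long. They were read from the GENCODE M21 transcripts (build GRCm38, all on the minus strand of chromosome 12), without the stop codon and with exons joined. Lower case marks 30 coding bases that both forms share, and capitals mark the bases found in 1 form alone.
Ighm secreted: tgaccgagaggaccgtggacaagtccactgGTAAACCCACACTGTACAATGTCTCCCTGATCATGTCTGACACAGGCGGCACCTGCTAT
Ighm membrane: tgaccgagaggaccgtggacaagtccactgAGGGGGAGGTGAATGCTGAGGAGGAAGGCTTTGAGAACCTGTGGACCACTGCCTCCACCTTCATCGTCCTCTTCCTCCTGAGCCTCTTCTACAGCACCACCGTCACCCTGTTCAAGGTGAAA
Igha secreted: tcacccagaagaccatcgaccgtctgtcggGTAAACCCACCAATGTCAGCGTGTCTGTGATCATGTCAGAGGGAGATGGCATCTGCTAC
Igha membrane: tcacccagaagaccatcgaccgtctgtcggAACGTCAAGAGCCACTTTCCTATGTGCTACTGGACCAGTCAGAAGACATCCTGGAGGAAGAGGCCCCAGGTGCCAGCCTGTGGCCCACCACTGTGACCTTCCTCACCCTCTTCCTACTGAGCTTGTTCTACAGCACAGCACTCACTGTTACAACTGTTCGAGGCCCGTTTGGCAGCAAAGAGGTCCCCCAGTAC

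The Ighm stretches lie at chr12:113420870-113420958 (secreted) and chr12:113418829-113420958 (membrane), and those of Igha at chr12:113258771-113258859 and chr12:113256204-113258859. In both genes the secreted form reads on through the splice donor (the GT at the start of its capitals) for 59 coding bases, the tailpiece, whose last codon but one, TGC, is the cysteine that joins IgM and IgA units with the J chain. The membrane forms splice at that point to exons with 122 (Ighm) and 194 (Igha) further coding bases, which hold the membrane anchor.

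Variable genes are shown by the last 90 coding bases of the leading heavy, kappa and lambda V genes, the stretch that runs up to the joint with D or J. The 3 capitals mark the codon of the conserved cysteine at the end of the third framework (the last match to TANTNNTGN on the coding strand whose final codon is TGT or TGC).
Ighv1-26: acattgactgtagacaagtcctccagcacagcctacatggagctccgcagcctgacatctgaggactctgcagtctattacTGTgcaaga
Ighv1-80: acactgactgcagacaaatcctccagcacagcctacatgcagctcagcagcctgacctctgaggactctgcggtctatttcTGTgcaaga
Igkv1-117: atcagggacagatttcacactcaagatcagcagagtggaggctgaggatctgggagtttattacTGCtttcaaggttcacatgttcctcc
Igkv1-110: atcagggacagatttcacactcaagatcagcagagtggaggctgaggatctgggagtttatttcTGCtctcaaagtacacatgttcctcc
Iglv1: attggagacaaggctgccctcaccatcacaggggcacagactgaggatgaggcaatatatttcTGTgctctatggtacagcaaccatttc
Iglv2: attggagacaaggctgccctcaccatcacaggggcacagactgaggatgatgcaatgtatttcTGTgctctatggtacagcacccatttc

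Over these 90 bases Ighv1-26 and Ighv1-80 differ at 8 positions, Igkv1-117 and Igkv1-110 at 4, and Iglv1 and Iglv2 at 3. Such likeness is general among the genes described. By a blastn search of each member against all GENCODE M21 transcripts, 79 of the 150 have a gene elsewhere that is at least 95% identical over at least 90% of their length. Ighv1-62-2 and Ighv1-71 are 100% identical to each other over the stretch aligned. How the deposited counts were divided within such groups cannot be checked from the tables, so levels of single V genes are uncertain to that degree, whereas no heavy constant gene and not Igkc has such a relative.

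Library totals were 27.2, 26.5 and 19.9 M expected counts. Immunoglobulin genes took 0.112%, 0.123% and 0.146% of them (95% Wilson intervals of 0.110 to 0.113, 0.121 to 0.124 and 0.144 to 0.147, which cover counting error only). Library 3 stood apart in fragment range and in markers of other blood cells. The labels give fragments of 200 to 594, 200 to 491 and 200 to 1000 bp for libraries 1 to 3. The summed level of 6 NK cell markers was 616, 508 and 1428 TPM (counts per gene length, scaled to the library's sum of such values). That of 5 platelet markers was 15.3, 11.0 and 95.2 TPM and that of 6 red cell markers 3533, 3326 and 263 TPM. The 6 neutrophil markers summed to 135, 120 and 1.35 TPM, with Ly6g at 0 in all 3. The neutrophil sum of libraries 1 and 2 is mostly Retnlg (124.45, 114.09 and 0 TPM). S100a8, S100a9, Mmp8 and Cxcr2 were also lowest in library 3, but reached 5.53 TPM at most in any library. The 9 B cell markers summed to 40.7, 46.4 and 41.3 TPM and the 5 plasma cell markers to 28.6, 27.9 and 36.0 TPM. Over 8302 protein-coding genes with a mean of at least 1 TPM, the median gene was 0.21 higher in library 3 than in library 1 and 0.37 higher than in library 2 (log2 of TPM + 0.1), a shift to bear in mind wherever library 3 is set against the others. Protein-coding and immunoglobulin genes together held only 11.0%, 9.89% and 10.8% of TPM, so that scaled to these genes alone all levels would be higher by 3.19, 3.34 and 3.21 on the log2 scale. The second deposited quantification of the same libraries gave the members a summed level of 1416 TPM against 654 TPM here.

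Heavy constant genes were led by Igha and Ighm. Igha, the heavy chain of IgA (ENSMUSG00000095079.6, chr12:113254830-113260236), had 50.96, 63.25 and 110.19 TPM from 5593, 7533 and 8001 counts. Library 3 was the highest, at 2.16 times library 1 and 1.74 times library 2. Ighm, the heavy chain of IgM (ENSMUSG00000076617.9, chr12:113418558-113422730), had 57.45, 55.74 and 53.10 TPM from 9621, 10220 and 6025 counts. It was the steadiest constant gene, with a coefficient of variation (SD over mean) of 3.95%, against 41.8% for Igha. Igha therefore lay below Ighm in library 1 and above it in libraries 2 and 3. In the second quantification Igha was the higher in library 1 too, at 93.4 against 91.8 TPM.

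The other heavy constant genes were lower. Ighd, the heavy chain of IgD, had 4.49, 3.36 and 3.52 TPM. Ighg2b, 1 of the IgG subclasses, had 4.71, 0.75 and 8.50 TPM from 668, 220 and 731 counts, with library 2 low and library 3 high. Ighg2c, the form of IgG2a that C57BL/6 mice carry, had 0.95, 0.96 and 2.26 TPM, and Ighg1 had 0.35, 0.30 and 1.96 TPM. Both were highest in library 3, with libraries 1 and 2 close together. Ighg3 had 0.51, 0.85 and 0.80 TPM. Ighe, the heavy chain of IgE, was no member, with 0 counts throughout, under a limit of 0.0216, 0.0197 and 0.0322 TPM (the level that 3 counts would give). That limit holds for the gene tables only: the second quantification assigned Ighe 52, 41 and 3 counts, 0.465, 0.336 and 0.0447 TPM.

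In order of mean TPM the heavy constant genes were Igha (74.8 ± 31.3), Ighm (55.4 ± 2.19), Ighg2b (4.65 ± 3.88), Ighd (3.79 ± 0.611), Ighg2c (1.39 ± 0.753), Ighg1 (0.870 ± 0.944) and Ighg3 (0.720 ± 0.184; SD, n = 3 each). Of neighbours in this order, Igha and Ighm overlapped in range, as did Ighg2b and Ighd, Ighg2c and Ighg1, and Ighg1 and Ighg3. The step from Igha and Ighm to the rest was clear of the libraries' spread, the lowest value of the pair being 50.96 TPM and the highest of the rest 8.50 TPM. Ighd also stayed above Ighg2c, with 3.36 TPM at its lowest against 2.26 TPM at the highest of Ighg2c.

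**Figure D1:**
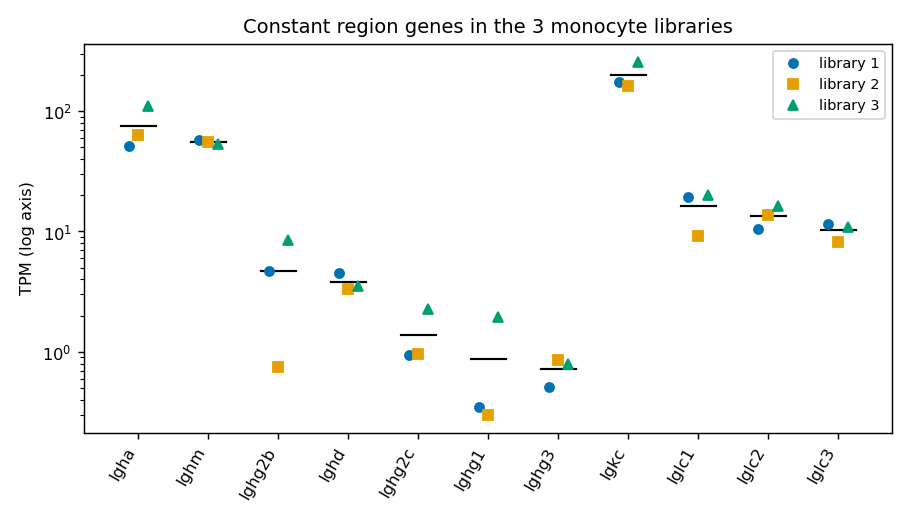
TPM on a log axis of the 11 constant region genes that met the count rule, heavy genes first, then Igkc and the lambda genes, with 1 point per library and a bar at the mean of 3 libraries. Igkc, Igha and Ighm stand above the others, Ighm points nearly coincide, and Ighg2b in library 2 lies at 0.75 TPM, well under its other points.

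Light chain constant genes were dominated by kappa. Igkc (ENSMUSG00000076609.2, chr6:70726435-70726966, plus strand), the single kappa constant gene, had 175.49, 160.16 and 257.14 TPM, the highest level of any immunoglobulin gene in each library. Iglc1 had 19.35, 9.13 and 20.02 TPM, Iglc2 10.46, 13.74 and 16.30 TPM, and Iglc3 11.64, 8.20 and 10.93 TPM. The ranges of the 3 lambda genes overlapped one another, and each lay under the lowest Igkc value. Iglc4, the remaining annotated lambda constant gene, had 0 counts in all 3 libraries, and 0, 22 and 0 in the second quantification.

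Ratios of constant genes within a library do not depend on the rule and were tested by an exact two-sided sign-flip test, which with 3 libraries cannot give less than p = 0.25. The ratio of Igkc to the summed lambda constant genes was 4.23, 5.15 and 5.44 on the TPM scale, a mean log2 ratio of 2.30 ± 0.19 (SD, n = 3; exact sign-flip p = 0.25), and Igkc was the higher in all 3. Ighm exceeded Ighd 12.8-fold, 16.6-fold and 15.1-fold, a mean log2 ratio of 3.88 ± 0.19 (SD, n = 3; exact sign-flip p = 0.25). Both ratios were well over their spread between libraries. Under GENCODE M4, which lacks Iglc1 and Iglc3, the kappa to lambda log2 ratio was 4.57.

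Ighm against the sum of the switched genes (Ighg1, Ighg2b, Ighg2c, Ighg3, Igha and Ighe) gave 0.999, 0.843 and 0.429, a mean log2 ratio of -0.49 ± 0.64 (SD, n = 3; exact sign-flip p = 0.25). This difference was smaller than its spread. Without library 3 the mean log2 ratio was -0.12. By TPM of the gene tables, library 3 thus held more switched than IgM message, with Igha supplying most of it. On that scale libraries 1 and 2 held about as much of one as of the other. In the second quantification Igha alone exceeded Ighm in libraries 1 (93.4 against 91.8 TPM) and 2 (104 against 85.4 TPM).

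Form of the message, membrane or secreted, separated Igha from Ighm. The share of each gene's TPM that the deposited transcript table assigned to the secreted form was 96.4%, 97.0% and 97.1% for Igha and 15.7%, 12.7% and 9.32% for Ighm. The ranges did not overlap, and each gene's spread was small beside the distance between them (96.8% ± 0.410 and 12.6% ± 3.17, SD, n = 3). In TPM the secreted form of Igha had 49.12, 61.38 and 107.01 and its membrane form 1.85, 1.88 and 3.17, whereas the secreted form of Ighm had 9, 7.06 and 4.95 and its membrane form 48.44, 48.68 and 48.15. The higher Igha level of library 3 was thus mainly secreted message, and the membrane form of Ighm was level across the libraries. The second quantification gave 98.0% in each library for Igha and 19.9%, 23.9% and 15.8% for Ighm.

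Secreted and membrane forms of the IgG genes and Ighd varied between libraries and between the deposited tables. Ighg2b had secreted shares of 77.7%, 0% and 86.0%. Its membrane form was at 1.05, 0.75 and 1.19 TPM and its secreted form at 3.65, 0 and 7.31 TPM, so that its low level in library 2 lay in the secreted form. The second quantification put that secreted form at 6.18, 0.240 and 13.2 TPM, again lowest in library 2. Ighg2c was given as wholly secreted in all 3 libraries, and in the second quantification as 61.4%, 100% and 100% secreted. Ighg1 was 22.9%, 13.3% and 73.6% secreted, against 76.9%, 58.6% and 85.1% in the second quantification. Ighg3 was 0%, 76.5% and 59.5% secreted, against 66.7%, 83.7% and 79.4%. Ighd was 27.4%, 0% and 0% secreted, against 46.6%, 11.1% and 30.4%. The secreted form of Ighg1 and Ighg3 was thus the larger in every library in the second quantification, but not in the first.

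**Figure D2:**
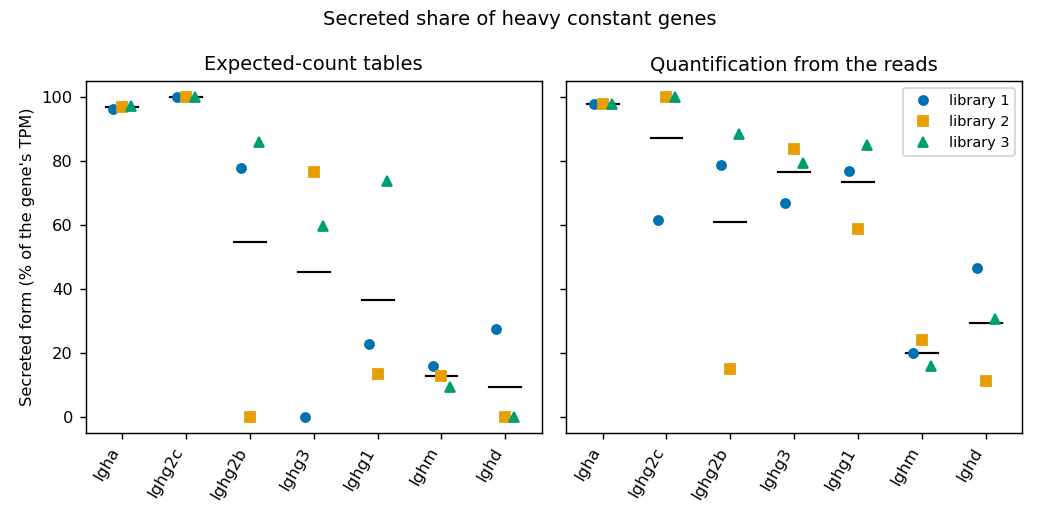
Share of each heavy constant gene's TPM assigned to the secreted transcript, in percent, by library, with a bar at the mean; left, the expected-count transcript tables, right, the second quantification. Igha is at 96.4% or more and Ighm at 23.9% or less in every library on both sides, while the points of Ighg2b spread widely on both sides and those of Ighg1 and Ighg3 more on the left than on the right.

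Joining segments had no counts in the gene tables. All 14 J and 22 D genes carry an effective length of 0 there, being shorter than the fragments, so none could be a member. The second quantification assigned counts to 13 of the 14 J genes. It also assigned counts to 44 V and 3 constant genes that are at 0 in the gene tables. The J sequences are printed because, of the tables used here, only that one has counts for them, with capitals on TGGGG (the tryptophan codon and the start of the next, in the heavy J) and TTCGG (the phenylalanine codon and the start of the next, in the kappa J), both searched on the coding strand.
Ighj1: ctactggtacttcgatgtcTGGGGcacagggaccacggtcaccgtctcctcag
Ighj2: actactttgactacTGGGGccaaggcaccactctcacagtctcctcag
Ighj3: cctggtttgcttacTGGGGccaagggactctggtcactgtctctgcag
Ighj4: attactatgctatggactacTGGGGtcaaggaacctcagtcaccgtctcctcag
Igkj1: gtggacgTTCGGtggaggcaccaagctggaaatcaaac
Igkj2: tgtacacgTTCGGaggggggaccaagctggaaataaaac
Igkj4: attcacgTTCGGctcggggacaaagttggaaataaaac
Igkj5: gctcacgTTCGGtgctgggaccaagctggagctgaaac

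The heavy J lie at chr12:113428514-113429833 (minus strand) and the kappa J at chr6:70722562-70723923 (plus strand). In the second quantification Ighj1 had 66, 41 and 57 counts, Ighj2 30, 99 and 104, Ighj3 25, 109 and 60, and Ighj4 80, 40 and 65. Every heavy J was thus present in every library, and none led in all 3: Ighj4 had the most counts in library 1, Ighj3 in library 2 and Ighj2 in library 3. Of the kappa J, Igkj2 had 36, 54 and 66 counts, Igkj4 96, 33 and 18, Igkj5 56, 112 and 33, and Igkj1 20, 0 and 8. Igkj3, whose sequence holds no TTCGG and which is not known to form functional light chains, was assigned 45, 26 and 10 counts. Lambda J counts summed to 62, 18 and 26. These are counts of fragments placed on segments of 38 to 54 bases and were not turned into levels.

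Variable genes were many and mostly low. Heavy V genes summed to 135, 103 and 204 TPM over the 73 members, kappa V genes to 83.5, 95.6 and 171 TPM over 63, and lambda V genes to 11.8, 6.01 and 16.1 TPM over 3. Library 3 had the highest sum for each chain. Of the 139 V members, 1 heavy gene (Ighv1-26) and 1 kappa gene (Igkv1-117) had a mean of at least 10 TPM, 41 heavy, 35 kappa and 3 lambda genes lay between 1 and 10 TPM, and 31 heavy and 27 kappa genes lay under 1 TPM. Counts were found in all 3 libraries for 41 of 73 heavy, 38 of 63 kappa and 3 of 3 lambda V members, and in a single library for 9 heavy and 11 kappa V members.

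Heavy V members were led by the large Ighv1 family. Ighv1-26 (chr12:114788372-114788805) had 10.35, 8.51 and 19.75 TPM, and Ighv1-80 (chr12:115912344-115912776) 10.96, 7.51 and 7.19 TPM. Ighv1-72 had 10.34, 2.81 and 7.50 TPM, Ighv1-82 3.96, 4.48 and 11.08 TPM, and Ighv1-19 6.54, 3.11 and 8.33 TPM. Ighv10-3 had 6.55, 3.90 and 5.81 TPM, Ighv9-3 3.52, 5.17 and 5.77 TPM, and Ighv1-64 5.65, 4.40 and 4.20 TPM. Neighbours among these 8 genes overlapped in range, so that their order by mean is not firm: the gene with the most heavy V counts was Ighv1-72 in library 1 (8.88%, 95% Wilson interval 7.90 to 9.97) and Ighv1-26 in libraries 2 (7.51%, 6.56 to 8.59) and 3 (8.66%, 7.69 to 9.74), with intervals for counting error only. In the second quantification Ighv1-26 again had the highest mean (41.6 TPM), followed by Ighv1-53 (24.3 TPM), which is not among these 8 and is named for that value.

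As a family Ighv1 took 66.1%, 64.6% and 68.4% of heavy V counts, with 40 members of 93 annotated genes (54 not pseudogenes). The family share was steady (66.3% ± 1.92, SD, n = 3) although its single genes were not. By mean share the next families were Ighv10 with 7.46%, 5.56% and 4.12% and Ighv2 with 6.04%, 3.91% and 4.26%. Ighv9 followed with 4.70%, 6.48% and 2.80%, and the ranges of these families overlapped. The family in the second place was Ighv10 in library 1, Ighv9 in library 2 and Ighv5 in library 3. Ighv11, a small family known from B-1 cells, had 1.42%, 1.76% and 0.173%, lowest in library 3. Its share is that of 1 member, Ighv11-2, and the part of B-1 cells in it was not tested. Ighv9 and Ighv10 were lowest in library 3 too. Ighv5, a family that lies toward the D and J segments, had 1.62%, 2.38% and 6.06%, highest in library 3.

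Kappa V members were led in the gene tables by a pair of Igkv1 genes. Igkv1-117 (chr6:68121046-68121827, plus strand) had 12.22, 11.16 and 13.43 TPM, the most even of all kappa V members (coefficient of variation 9.26%). Igkv1-110 (chr6:68270485-68271267), its 97.5% identical relative, had 3.55, 6.46 and 18.98 TPM. As a share of kappa V counts Igkv1-117 took 16.5%, 13.2% and 8.94% and Igkv1-110 4.73%, 7.54% and 12.5%. Igkv1-117 led in libraries 1 and 2 and Igkv1-110 in library 3. Under GENCODE M4 the mean of Igkv1-117 was 7.94 TPM in place of 12.27. In the second quantification Igkv19-93, with 24.3, 12.3 and 30.1 TPM, had a higher mean (22.2 TPM) than Igkv1-110 (21.3 TPM) and led in library 1, where Igkv1-117 had 19.9 TPM.

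The next kappa V members by mean were Igkv10-96 with 3.94, 5.00 and 10.79 TPM, Igkv19-93 with 5.75, 2.98 and 8.42 TPM, and Igkv12-46 with 4.57, 2.33 and 5.67 TPM. Igkv16-104 went the other way, with 7.13, 3.80 and 0.61 TPM. Igkv6-15 had 1.59, 1.68 and 7.76 TPM and Igkv17-127 0.77, 1.79 and 6.90 TPM. Of the 8 leading kappa V members 7 were thus highest in library 3 and 1, Igkv16-104, in library 1. Igkv1 was the largest family in each library, with 25.5%, 21.1% and 24.4% of kappa V counts. By mean share Igkv4 (7.38%, 14.3% and 7.94%, 12 members of 33 annotated) and Igkv6 (7.54%, 12.0% and 9.34%) came next, but the family in the second place was Igkv16 in library 1 (8.53%), Igkv4 in library 2 and Igkv6 in library 3.

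Lambda V genes numbered 3 in the annotation and all were members. Iglv1 (chr16:19085017-19085500, minus strand), which joins to Iglc1 and Iglc3, had 7.86, 3.34 and 12.28 TPM. Iglv2, which joins to Iglc2, had 1.81, 1.17 and 2.83 TPM and Iglv3 2.16, 1.5 and 0.94 TPM. Iglv1 was the highest of the 3 in each library, with 68.2%, 57.4% and 78.4% of lambda V counts, and Iglv2 and Iglv3 overlapped. Under GENCODE M4 Iglv2 had a mean of 0.27 TPM in place of 1.94. The V genes held 17.1%, 12.5% and 19.4% of all lambda counts, 14.6%, 12.1% and 15.6% of heavy counts and 21.4%, 25.7% and 26.9% of kappa counts.

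**Figure D3:**
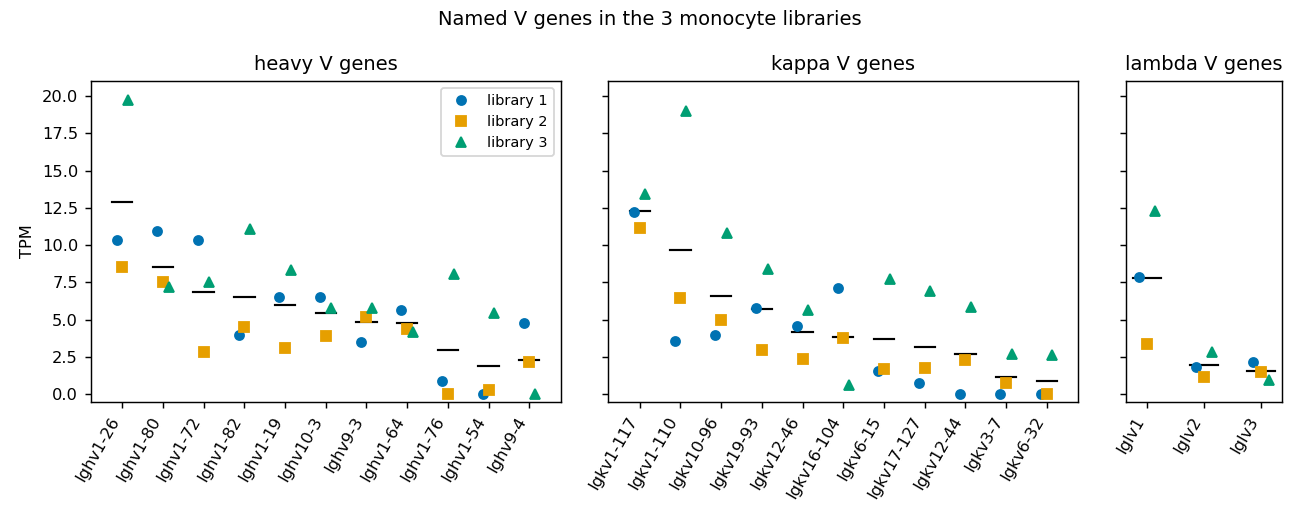
TPM of the V genes named by rule in each chain, by library, with a bar at the mean; the first 8 heavy and kappa genes are the highest by mean and the last 3 are those that differed most between libraries. Ighv1-26 and Igkv1-110 reach 19.75 and 18.98 TPM in library 3, Igkv1-117 is level, and Igkv16-104 and Ighv9-4 are lowest in library 3.

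Single V genes differed widely between libraries. Among the 106 V members with 30 or more counts in all, the highest and lowest TPM (0.01 added) differed by a median of 5.30 times. Of these members 93 differed by 2 times or more and 40 by 10 times or more, and 27 had no counts in at least 1 library. For those 27 the size of the ratio rests on the added 0.01, because 0 counts give only an upper limit. How widely other genes with as few counts differ between libraries was not counted, so such spread is not shown to be particular to V genes. Ighv1-76 had 19, 0 and 83 counts, 0.87, 0 and 8.09 TPM, with library 2 at 0. Ighv1-54 had 0, 8 and 79 counts, and Ighv9-4 had 66, 50 and 0. Of the kappa V genes Igkv12-44 had 0, 67 and 96.4 counts, Igkv3-7 0, 18 and 35.4, and Igkv6-32 0, 0 and 36. These 6 were chosen as the extremes of that ratio, and each has a 0 in at least 1 library. Of the 6, 5 were highest in library 3. The second quantification narrowed these differences. It gave Ighv1-76 76.2, 57.6 and 163 counts (4.35, 4.15 and 16.4 TPM) and Ighv1-54 54.5, 83.0 and 95.8 counts, and left only Ighv9-4 (in library 3) and Igkv6-32 (in library 1) of the 6 with a 0. Over the same 106 V members its median ratio of highest to lowest TPM (0.01 added) was 3.52. There 85 were at 2 times or more, 22 at 10 times or more and 11 without counts in at least 1 library, with the same limit for those 11.

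Across V members the correlation of log2(TPM + 0.1) between libraries was moderate. For 73 heavy V genes Pearson's r was 0.499 between libraries 1 and 2, 0.304 between 1 and 3 and 0.320 between 2 and 3 (Spearman's rho 0.592, 0.394 and 0.348). For 63 kappa V genes r was 0.469, 0.440 and 0.337 (rho 0.438, 0.482 and 0.393). These are correlations over genes that share libraries and related sequences, given as a description. The number of V genes with counts was 57, 58 and 78 for heavy and 45, 55 and 77 for kappa. Both were most in library 3, the library with the fewest counts. Genes of all kinds with counts numbered 16635, 16810 and 19160, so library 3 had the most there too. The 5 most counted genes took 34.5%, 29.8% and 28.4% of heavy V counts and 41.6%, 36.4% and 35.6% of kappa V counts.

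Highest level by library was also counted over all members. Of 150, 87 (58.0%) were highest in library 3, 35 in library 1 and 28 in library 2. Among all 17664 genes with a summed count of at least 10 and a usable length, 51.5% were highest in library 3. The summed kappa V level of library 3, 2.05 times library 1 and 1.79 times library 2, exceeded the median shift by 0.83 and 0.47 on the log2 scale, and Igha exceeded it by 0.90 and 0.43. Ighm lay 0.32 and 0.44 below the shift, and the B cell markers 0.19 and 0.54 below it. The plasma cell markers lay 0.12 above it against library 1 and at -0.0026 against library 2. That sum is mostly Jchain (23.78, 23.87 and 29.05 TPM). Of the other plasma cell markers, Mzb1 (3.85, 2.65 and 4.51 TPM), Derl3 (0.28, 0.40 and 0.73 TPM) and Tnfrsf17 (0.14, 0.28 and 1.23 TPM) were highest in library 3. Sdc1 (0.57, 0.69 and 0.47 TPM) was lowest there. With 1 library on 1 side these differences have no test, and the part of other cells or of fragment range in them was not tested.

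Pseudogenes were nearly absent. Of heavy V genes 72 of 115 not annotated as pseudogenes (62.6%) and 1 of 81 pseudogenes (Ighv1-2) met the rule, and of kappa V genes 62 of 104 (59.6%) and 1 of 74 (Igkv1-108). The biotype was not part of the count rule. Members lay along the whole of both loci. In the second quantification 5 V pseudogenes reached 10 counts. When the heavy V genes not annotated as pseudogenes were ordered by distance from the J segments, from 149 to 2570 kb, and cut into 4 runs of 28 or 29 genes, 17, 17, 18 and 20 of them were members, and the runs took 14.8%, 21.1%, 33.2% and 30.9% of these genes' counts.

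In the kappa locus, from 18.4 to 3166 kb, 4 runs of 25 or 26 such genes held 17, 15, 13 and 17 members and 18.3%, 20.0%, 18.2% and 43.5% of the counts, the last with Igkv1-117 and Igkv1-110. A further 2 kappa V-like genes, Gm17472 and Gm20730, lie over 5000 kb away and had no counts. Kappa V genes point both ways, and those facing as the J do are joined by deletion, the others by inversion. Leaving out pseudogenes, of 38 facing as the J do 26 were members, with 53.7% of these genes' counts, and of 64 facing the other way 36, with 46.3%. Members of either orientation were thus well represented.

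**Figure D4:**
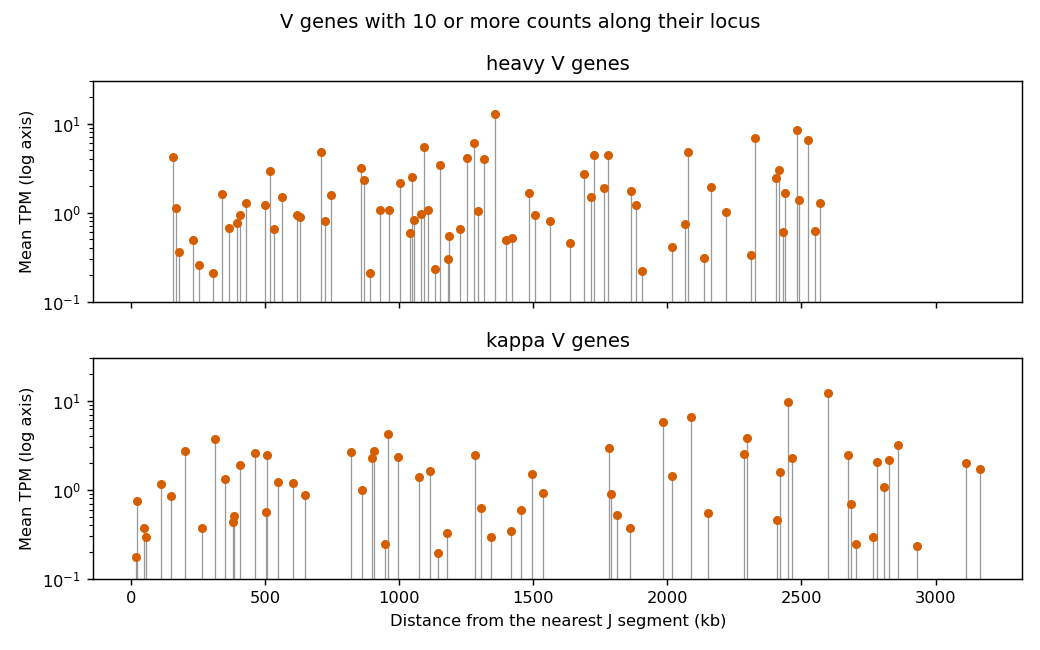
Mean TPM over 3 libraries (log axis) of heavy (top) and kappa (bottom) V genes that met the count rule, by distance in kb from the nearest J segment. Points lie along both loci from end to end; Ighv1-26 is the tallest heavy gene at 12.87 TPM and Igkv1-117 the tallest kappa gene at 12.27 TPM.

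By chain, heavy genes took 65.1%, 66.3% and 63.8% of the immunoglobulin counts, kappa 29.5%, 29.8% and 31.9%, and lambda 5.40%, 3.99% and 4.35%. Heavy messages are longer, and on the TPM scale, which is per length, heavy genes held 44.2% ± 0.613, kappa 47.9% ± 1.92 and lambda 7.88% ± 1.30 (SD, n = 3 each). Constant genes supplied 82.6% of the counts of all annotated immunoglobulin genes. Heavy led kappa in each library on the count scale, whereas on the TPM scale kappa led heavy, with 45.7%, 49.1% and 48.9% against 44.9%, 43.8% and 43.9%.

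The count rule cut through low V genes. Just inside it were Ighv3-8 and Ighv5-9-1, each with 10 counts, all in library 3. Just outside were Igkv6-14 with 9 counts (5, 0 and 4) and then Ighv1-69, Ighv7-1, Ighv9-1 and Igkv4-80, each with 8, all in library 3. In all, 187 of the 432 annotated genes had any counts.

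Genes that work with immunoglobulin were tested against a level of 1 TPM with edgeR's quasi-likelihood F test, with Benjamini-Hochberg adjustment over 17664 genes and calls at an adjusted p under 0.05. Over all genes tested 43.2% were called above 1 TPM and 6.36% below it, and the median of the mean TPM was 1.18. Partners of the B cell receptor and genes of B cell identity were called above in 10 of 14 cases and below in 0, with a median of 3.65 TPM. In bulk RNA fewer cells of a type and less RNA per cell cannot be told apart.

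Both signalling chains of the receptor were above 1 TPM. Cd79a had 3.67, 4.38 and 2.76 TPM (edgeR adjusted p = 1.86e-05) and Cd79b 13.75, 11.57 and 10.78 TPM (adjusted p = 1.48e-09). Ms4a1 (CD20) had 10.57, 12.57 and 7.68 TPM. Cd22 and Cd72, inhibitory co-receptors, had 4.78, 5.82 and 10.42 TPM and 11.34, 7.18 and 15.05 TPM. Bank1, Blk, Fcrla and Pou2af1 were also called above, Blk not without library 1 (edgeR adjusted p = 0.0667). Cr2, the complement receptor of B cells, was called above (1.37, 3.36 and 0.90 TPM, edgeR adjusted p = 0.0379), but not without library 2 (adjusted p = 0.677), nor with all 3 libraries under DESeq2 (adjusted p = 0.0738) or limma (adjusted p = 0.173 and 0.202 with 0.1 and 1 TPM added). The transcription factors Pax5, Ebf1 and Spib and the IgE receptor Fcer2a had means from 1.28 to 1.41 TPM and were not called.

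Of 8 genes of antibody secretion 5 were above 1 TPM and 0 below, with a median of 3.00 TPM. Jchain, the joining protein of secreted IgA and IgM, had 23.78, 23.87 and 29.05 TPM (edgeR adjusted p = 1.66e-11) and Xbp1, the factor that expands the secretory apparatus, 27.42, 23.20 and 28.54 TPM (adjusted p = 1.12e-11). Mzb1, a chaperone of antibody assembly, had 3.85, 2.65 and 4.51 TPM. Prdm1 (1.82, 1.64 and 4.85 TPM) and Irf4 (2.68, 3.94 and 3.07 TPM) were also called above. Xbp1, Prdm1 and Irf4 are expressed outside plasma cells too. Sdc1, Derl3 and Tnfrsf17, further plasma cell genes, had means from 0.470 to 0.577 TPM and were not called.

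The genes that recombine V, D and J or stand in for the light chain in B cell precursors were at or near 0. Of 7, only 2 had enough counts to be tested, 0 were called above and 1, Rag1, below (0.09, 0.03 and 0.01 TPM; edgeR adjusted p = 0.0138), a call lost without library 1 (adjusted p = 0.0991) and with TPM scaled to protein-coding genes (adjusted p = 0.320). Rag2, Vpreb2 and Igll1 had 0 counts in all 3 libraries, and Dntt and Vpreb1 had 5 and 3 counts in library 3 alone. Vpreb3 had 27, 6 and 3 counts. The median of the 7 was 0.013 TPM.

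Receptors that bind immunoglobulin were high. Of 11, 8 were called above 1 TPM and 0 below, with a median of 4.70 TPM. Fcer1g, the signalling chain shared by Fc receptors, had 91.86, 98.45 and 98.44 TPM, Fcgr4 64.21, 53.50 and 37.53 TPM, Fcgr3 46.37, 40.68 and 27.79 TPM and the inhibitory Fcgr2b 18.97, 18.48 and 19.23 TPM. Fcgr3 and Fcgr4 were lowest in library 3, where the 9 monocyte markers, Fcgr4 among them, also summed lowest (2484, 2083 and 1491 TPM). That sum is mostly Lyz2 and Ctss, both lowest in library 3, whereas Csf1r (69.84, 52.40 and 86.61 TPM), Tyrobp, Itgam and Ccr2 were highest there. Fcgrt, the carrier that recycles IgG, Fcmr, the IgM receptor, and Trim21, which binds antibody in the cytosol, were called above as well. Fcer1a was called above (3.04, 5.30 and 0.49 TPM, edgeR adjusted p = 0.0101), but not without library 2 (adjusted p = 0.227) or with limma (adjusted p = 0.156 and 0.129 with 0.1 and 1 TPM added). Fcgr1 (1.32, 1.09 and 1.69 TPM) was not called, and Fcamr and Pigr, receptors of polymeric antibody, had 0 counts in all libraries and 5 in library 3 alone.

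**Figure D5:**
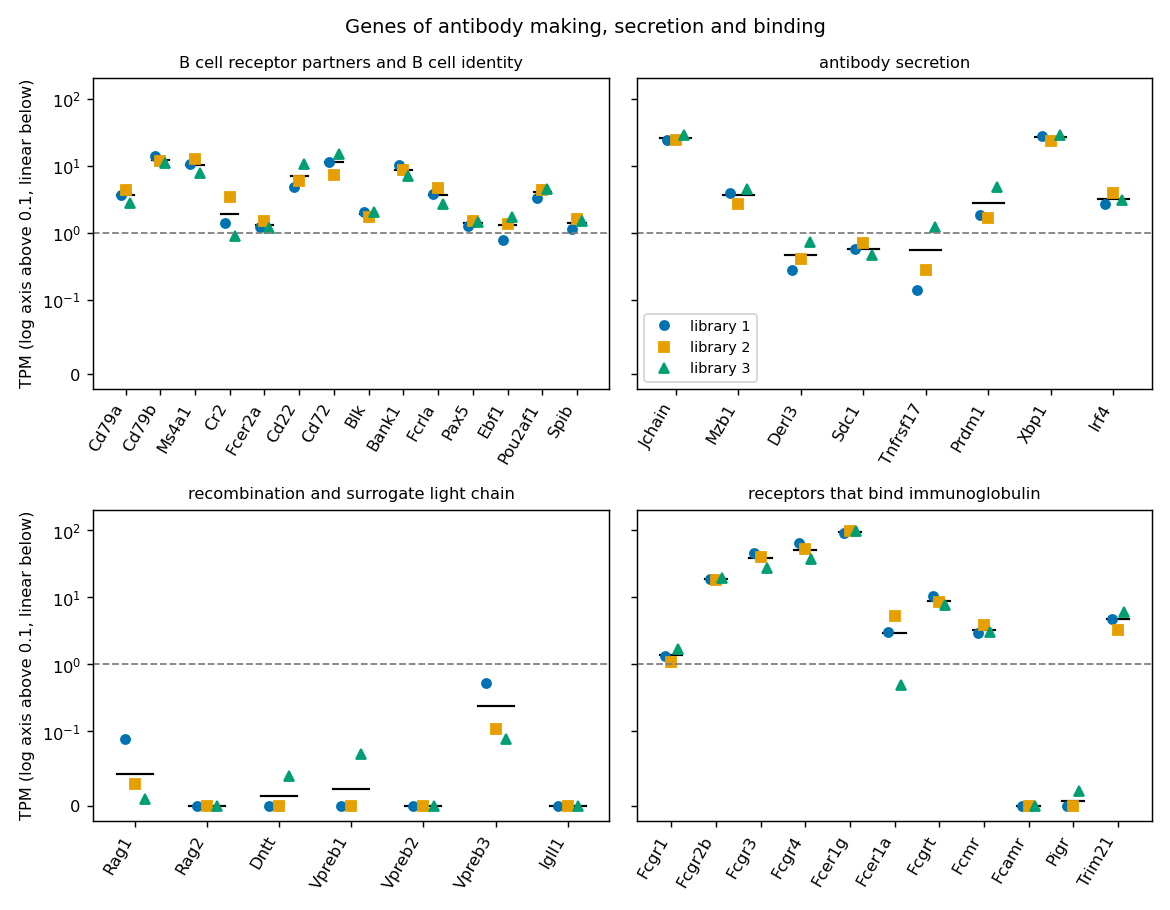
TPM by library (log axis above 0.1, linear below) of the genes in 4 lists, with a bar at the mean and a dashed line at 1 TPM. B cell receptor partners lie mostly above the line, Jchain and Xbp1 lead the secretion list, the recombination genes lie near 0, and Fcer1g, Fcgr4 and Fcgr3 are the highest of all.

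Set beside these lists, Igkc at 160.16 to 257.14 TPM and Ighm at 53.10 to 57.45 TPM exceeded every B cell gene of the list, of which Cd72 reached 15.05 TPM at most. Igkc also exceeded Fcer1g, while Ighm lay in the range of Fcgr4. Overlap with other genes was small for the genes named: Gm30211, on the same strand as Igkc, had 0.25, 0.19 and 0.23 TPM, and 2010309G21Rik, on the strand opposite to Iglc1, Iglc3 and Iglv1, had 0.54, 0.19 and 0.24 TPM.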

How the data were processed

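Total RNA of monocytes was sequenced in 3 libraries. The authors deposited expected counts and TPM per gene and per transcript for GENCODE M21, the same per gene for GENCODE M4 (mm10, per the labels), and estimated counts and TPM per transcript in the format kallisto writes, here called the second quantification. The programs and the strand setting were not named in the labels used here. The members and all lists were chosen with earlier results of these data known. Gene TPM was described as deposited, as mean and SD over libraries. Rows without a gene held at most 0.000571% of counts. Expected counts were rounded and fitted with edgeR 4.0.16 (R 4.3.3), intercept only, with the count that 1 TPM stands for as offset, for genes whose counts summed to at least 10, and the code was tested on simulated data. Named genes were every constant member, the 8 highest V members by mean TPM and the 3 most uneven (summed count of 30 or more) per chain, those nearest to the rule's limit, and 4 pathway lists, of which some genes are not reported here. Transcript sequences came from GENCODE M21 and relatives from blastn 2.17.0. Alternatives were DESeq2 1.42.0, limma 3.58.1 (log2 TPM with 0.1 or 1 added), other scalings, filters and levels, GENCODE M4, the second quantification and leaving out each library. Secreted shares were added after their values were seen.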

Additional observations from a re-analysis of the deposited data

How the results depend on the processing

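No paired analysis was possible because there is 1 group. The 3 ratios of constant genes kept their direction under GENCODE M4, under the second quantification and without each library, and the exact sign-flip test could give none of them less than p = 0.25. The number of members was 138 under GENCODE M4, 191 in the second quantification, 117 with a minimum of 30 counts and 187 with any count, and 125 to 142 without 1 library. GENCODE M4, which lacks 94 of the immunoglobulin genes, among them Iglc1 and Iglc3, and has Igkc at a length of 323 bases against 532, gave chain shares of counts of 78.3% heavy, 19.5% kappa and 2.21% lambda and a kappa to lambda log2 ratio of 4.57 in place of 2.30. The second quantification gave 63.5% heavy and 32.2% kappa, secreted shares of 98.0% for Igha and 19.8% for Ighm, and a summed member level of 1416 TPM in place of 654. Shares of TPM were 44.2% heavy, 47.9% kappa and 7.88% lambda. Without 1 library the shares of counts ranged from 64.5% to 65.7%, 29.6% to 30.8% and 4.17% to 4.87%, the summed level from 544 to 721 TPM, the secreted share of Igha from 96.7% to 97.1% and of Ighm from 11.0% to 14.2%. Protein-coding and immunoglobulin genes held 11.0%, 9.89% and 10.8% of TPM, so that scaling to them moved every level up by 3.19 to 3.34 on the log2 scale, to 6183 TPM in sum.

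Of the pathway genes 23 were called above 1 TPM, and 21 to 31 under the alternatives. The 1 call below became 2 with DESeq2, 2 with limma on log2(TPM + 0.1), 3 with limma on log2(TPM + 1), 0 with TPM over protein-coding genes, and 0 to 1 without 1 library. Derl3, Sdc1 and Tnfrsf17, not called in the main test, were above 1 TPM with TPM over protein-coding genes, at log2 levels of 2.16, 2.48 and 2.37. Over all genes the 7639 calls above became 12092 and the 1124 below became 1 with that scaling; calls below were 3962 with DESeq2, 6290 and 6737 with limma, 176 at a level of 0.5 TPM and 256 to 1087 without 1 library. In these alternatives the cause was not tested. The second quantification moved the level of 27 of the 32 V genes named by rule by more than their spread between libraries. These include the genes just outside the count rule and no constant gene. Depth leaves only an upper limit where a gene had no counts in a library: 38, 28 and 11 of 150 members in libraries 1 to 3.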
